A study of Mus musculus with 43 samples.

Results

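The genes described here are 10 heat shock proteins and chaperones, followed across 4 tissues of the mouse. They were Hspa1a, Hspa1b, Hspa8, Hsph1, Dnajb1, Hsp90aa1, Hsp90ab1, Hspb1, Hspa5 and Hsp90b1, 10 of the 42349 entries in the table, picked by gene symbol with earlier results of these data known. Of these, 8 had an entry of their own, and Hspa8 and Hsp90b1 shared an entry with overlapping small genes (3 snoRNA genes within Hspa8, and Gm15344 and Gm25745 for Hsp90b1), so their values hold the reads of those genes too.

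RNA was sequenced from the brain, the liver, skeletal muscle and white adipose tissue (WAT, from the inguinal depot) of female mice at 15 months of age. WT AL mice were wild type animals fed ad libitum (AL), and WT DR mice were wild type animals kept for 12 months on 30% dietary restriction (DR). KO AL and KO DR mice were labelled as lacking the gene for insulin receptor substrate 1 (Irs1) throughout the body, fed ad libitum and restricted respectively. The labels list 43 libraries in 16 groups, 2 for each WT AL group and for WT DR in WAT and 3 for each of the other groups.

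The deposited table holds a single FPKM for each gene in each group, a read density that allows for the length of the transcript and the size of the library, with its 95% interval, so the depth and the spread of single libraries are unknown. The SD written after each value here was read from the interval. Over the groups its median was between 27.2% and 62.3% of the FPKM. Irs1 itself was not lower in most groups labelled KO. Its FPKM in liver, skeletal muscle, brain and WAT was 4.70, 5.72, 2.47 and 2.47 in WT AL against 5.95, 6.31, 3.49 and 5.37 in KO AL. Under restriction it was 3.29, 5.48, 1.62 and 6.56 in WT DR against 4.75, 5.82, 4.14 and 2.58 in KO DR. It was higher in the group labelled KO in 7 of 8 pairs. Only the difference in brain under restriction was called by the test described below (log2 difference 1.35, SE 0.40). The deleted part of the gene was not known here, so the FPKM of the whole gene cannot check the labels. KO AL and KO DR below are therefore the names of labelled groups. The defining markers of each tissue were high in its own libraries, with a summed FPKM of 10 hepatocyte genes between 73707 and 168497 in liver, of 10 skeletal muscle genes between 118088 and 191523 in muscle, of 8 neuron and glia genes between 2970 and 6129 in brain and of 8 adipocyte genes between 13652 and 22625 in WAT.

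Chaperones of the Hsp70 family bind stretches of unfolded protein and release them on a cycle of ATP hydrolysis. J proteins such as Dnajb1 start that cycle, the Hsp110 protein Hsph1 resets it by exchanging the nucleotide, and clients pass on to Hsp90. Hspa8 and Hsp90ab1 are the constitutive cytosolic forms, while Hspa1a, Hspa1b and Hsp90aa1 are the forms that heat and other proteotoxic stress induce through heat shock factor 1. Hspb1 is a small heat shock protein that holds unfolded clients without ATP. Hspa5 (BiP) and Hsp90b1 (Grp94) serve the endoplasmic reticulum and are induced by the unfolded protein response.

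Hspa1a (chr17:34969190-34972156, minus strand, GRCm38) and Hspa1b (chr17:34956436-34959238, minus strand) are neighbouring genes with 1 exon each. They are near-identical copies, and how the authors' counting divided reads between them is uncertain. Their promoters are shown because the results turn on this pair. Those of Hspb1, Hsph1, Hspa5 and Hsp90b1 are shown because they match letters, described below, of binding motifs of the 2 stress pathways just named. The sequences are from RefSeq (GRCm38.p6) and read 5′ to 3′ on the strand of the gene, with the motif in capitals. Windows from 250 bases before to 50 after a gene's RefSeq start were at hand for 7 of the 10 members. Those of Hspa8, Hsp90aa1 and Hsp90ab1 were not analysed here. Distances to a start count from the RefSeq start. The coordinates given for whole genes are from GENCODE, whose starts can differ. By the GENCODE coordinates the stretch printed for Hspa5 and the motif marked for Hsph1 lie inside the gene.
Hspa1a, chr17:34972177-34972286: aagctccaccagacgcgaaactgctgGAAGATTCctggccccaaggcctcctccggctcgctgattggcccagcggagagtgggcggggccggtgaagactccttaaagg
Hspa1b, chr17:34959259-34959368: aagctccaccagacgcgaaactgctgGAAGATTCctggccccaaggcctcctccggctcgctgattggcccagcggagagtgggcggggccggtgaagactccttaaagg
Hspb1, chr5:135887789-135887848: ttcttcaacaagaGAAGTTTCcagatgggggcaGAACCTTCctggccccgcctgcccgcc
Hsph1, chr5:149636347-149636406: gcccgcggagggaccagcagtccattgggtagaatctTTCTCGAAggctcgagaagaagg
Hspa5, chr2:34772015-34772054: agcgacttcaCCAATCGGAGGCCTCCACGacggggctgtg
Hsp90b1, chr10:86705525-86705664: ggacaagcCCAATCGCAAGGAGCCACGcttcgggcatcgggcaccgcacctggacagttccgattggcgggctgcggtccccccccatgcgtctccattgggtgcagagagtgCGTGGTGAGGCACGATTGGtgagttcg

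The heat shock element, to which heat shock factors bind, is built of inverted GAA units. A pair of facing units (GAANNTTC, which reads the same on both strands) stood 104 bases before the start of Hspa1a and of Hspa1b, and 117 and 97 bases before that of Hspb1, and 7.86% of 32851 RefSeq windows held one. A pair of units pointing apart (TTCNNGAA, also the same on both strands) stood 33 bases before the first of the RefSeq starts of Hsph1 (54 before the other), and 8.52% of windows held one. A row of 3 units (GAA, TTC and GAA with any 2 bases between neighbours, searched on both strands, which contains both pairs) was found in 0.603% of windows. Among the 7 members searched, Hsph1 alone had it, after its start. The endoplasmic reticulum stress response element (CCAAT, any 9 bases and CCACG, searched on both strands) was in 0.119% of windows, stood 65 bases before the start of Hspa5 and began 212 and, on the other strand, 107 bases before that of Hsp90b1. Neither Dnajb1 window held any of these letters. The windows of Hspa1a and Hspa1b differed at 4 of 300 bases, and the 110 bases printed are the same in both genes. Only exact letters were searched, so an element with a changed base would be missed. A match in letters is a description of the sequence and does not show binding in these tissues.

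The ranges of the groups of Hspb1, Hsp90aa1, Hsph1, Dnajb1 and Hspa5 did not overlap in at least 3 of 6 pairs of tissues, as was so for 69.6% of all entries with an FPKM of at least 1 in any group. Hspa1b overlapped in every pair. Its means over groups were 10.6 to 16.3 FPKM in the 4 tissues, but its groups differed by up to 9.30-fold within a tissue (skeletal muscle). In tissue RNA a higher share of cells that express a gene and more RNA per cell cannot be told apart. FPKM is scaled to length, so levels were set side by side between genes. The Hspa8 value also holds reads of its snoRNA genes, and how reads were divided between Hspa1a and Hspa1b is uncertain. Hsp90ab1 and Hspa8 were the most abundant of the cytosolic members in every tissue, with 349 to 713 and 169 to 690 FPKM over the 16 groups, whereas Hspa1a ranged from 1.65 to 16.3 FPKM and Hspa1b from 2.65 to 39.3 FPKM. In each group the level of Hspa8 was between 4.44 and 45.4 times the sum of Hspa1a and Hspa1b. The lowest ratio was that of KO AL in WAT and the highest that of KO DR in liver.

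**Figure D1:**
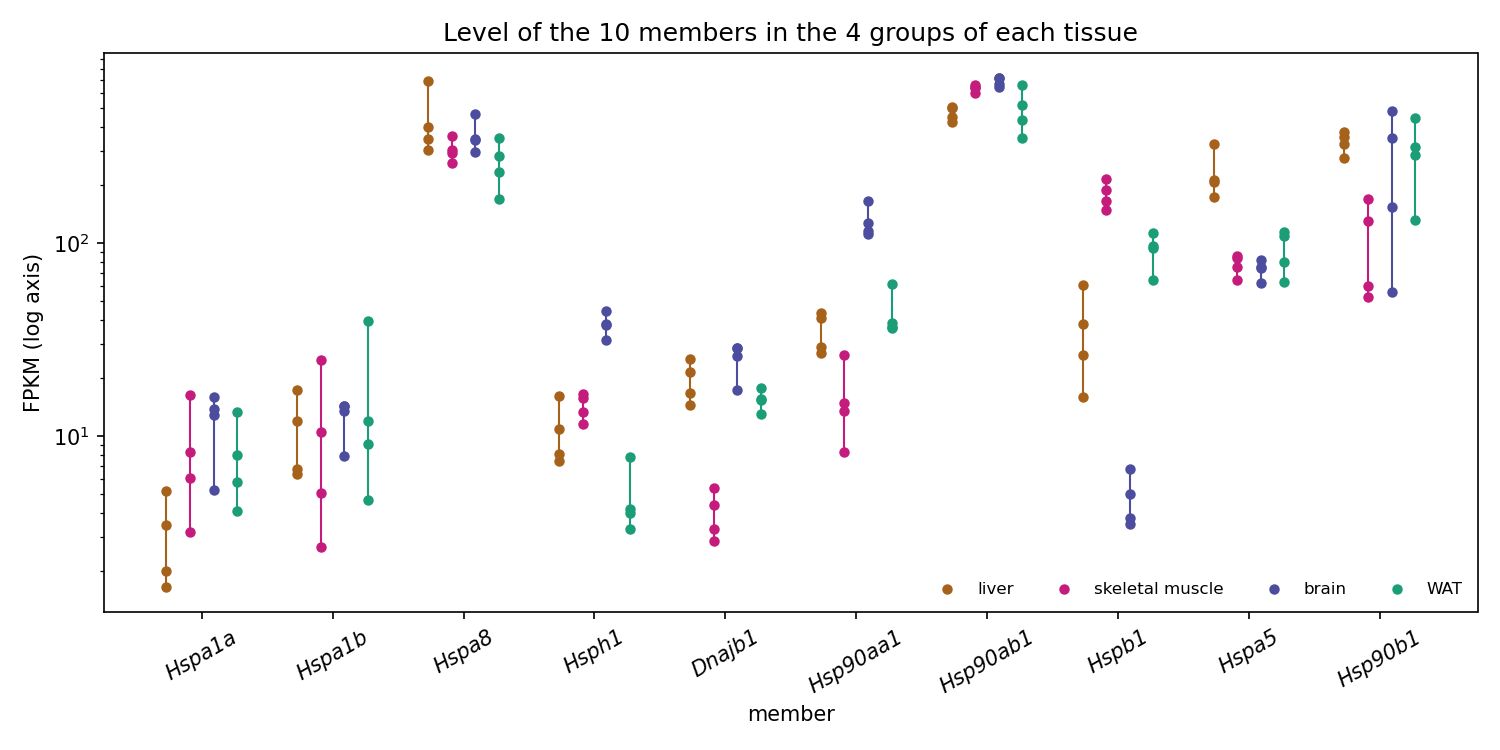
FPKM (log axis) of the 10 members; each point is 1 of the 4 groups of a tissue and each line joins the lowest and highest group. Hspb1 is highest in skeletal muscle and lowest in brain, Hsp90aa1 and Hsph1 are highest in brain, and Hsp90ab1 stays between 349 and 713 FPKM in all 16 groups.

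Hspb1 (chr5:135887919-135889563) spanned the widest range of any member, 61.4-fold from its lowest to its highest group. In skeletal muscle it had 148 ± 35.3 FPKM (SD) in WT AL, 166 ± 28.7 in WT DR, 214 ± 60.5 in KO AL and 188 ± 48.1 in KO DR. In WAT the same groups had 113 ± 19.2, 94.7 ± 43.5, 64.2 ± 13.7 and 96.2 ± 24.1 FPKM, and in liver 26.2 ± 9.38, 15.9 ± 3.76, 60.6 ± 12.2 and 38.1 ± 10.9 FPKM. In brain they had 4.99 ± 2.62, 3.48 ± 1.16, 6.77 ± 2.60 and 3.75 ± 1.39 FPKM. The order was skeletal muscle, WAT, liver and brain, and the groups of no tissue overlapped with those of another, although the highest liver group (KO AL, 60.6) and the lowest WAT group (KO AL, 64.2) lay within their SDs. The mean over groups in muscle was 37.7 times that in brain.

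Hsp90aa1 (chr12:110690605-110702728), the inducible Hsp90, was highest in brain with 112 ± 40.0 FPKM in WT AL, 164 ± 69.7 in WT DR, 126 ± 46.2 in KO AL and 115 ± 29.3 in KO DR. The mean over groups in brain was 2.99 times that in WAT, 3.69 times that in liver and 8.24 times that in skeletal muscle. The groups of liver (27.1 to 43.3 FPKM) and WAT (36.1 to 61.4 FPKM) overlapped, and those of skeletal muscle (8.32 to 26.2 FPKM) lay below both. The constitutive Hsp90ab1 (chr17:45567775-45573271) had 600 to 657 FPKM in muscle, 646 to 713 in brain, 426 to 508 in liver and 349 to 661 in WAT. Its liver groups lay below all muscle and brain groups, by 1.35-fold and 1.45-fold in the mean, where the SDs over its 16 groups were 25.3% to 65.3% of the FPKM. The ratio of Hsp90ab1 to Hsp90aa1 was thus between 3.93 and 6.38 in the brain groups and between 22.9 and 79.0 in the muscle groups.

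Hsph1 (chr5:149614287-149636376) was also highest in brain, with 31.6 ± 10.1 FPKM in WT AL, 38.0 ± 7.66 in WT DR, 37.5 ± 11.1 in KO AL and 44.2 ± 8.08 in KO DR. Its groups had 11.6 to 16.6 FPKM in skeletal muscle, 7.41 to 16.1 in liver and 3.29 to 7.78 in WAT. Brain stood above all other tissues and muscle above WAT, while liver overlapped with muscle and with WAT. The brain mean was 7.86 times the WAT mean.

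Dnajb1 (chr8:83608193-83612653) was low in a single tissue. In skeletal muscle it had 2.86 ± 0.291 FPKM in WT AL, 3.31 ± 0.622 in WT DR, 4.41 ± 0.966 in KO AL and 5.35 ± 1.37 in KO DR. Its groups had 17.4 to 28.6 FPKM in brain, 14.5 to 25.1 in liver and 13 to 17.8 in WAT. These 3 tissues overlapped with each other, and muscle lay below all of them, by 6.30-fold against brain in the mean.

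Hspa5 (chr2:34771970-34777547) was highest in liver with 213 ± 83.1 FPKM in WT AL, 174 ± 74.8 in WT DR, 327 ± 112 in KO AL and 208 ± 69.5 in KO DR. Its groups in skeletal muscle (64.1 to 85.8 FPKM), brain (61.9 to 82.0 FPKM) and WAT (63.1 to 114 FPKM) overlapped with each other and lay below liver, by 2.53-fold to 3.15-fold in the mean. The lowest liver group (WT DR, 174 ± 74.8) and the highest WAT group (KO DR, 114 ± 61.1) nevertheless lay within their SDs. Hspa8 (chr9:40800984-40810087) overlapped between every pair of tissues. Hsp90b1 (chr10:86690209-86705509) had 52.3 to 484 FPKM, but its SDs were 100.3% to 387% of the FPKM, so although its 4 liver groups lay above its 4 muscle groups, neither tissues nor groups could be told apart on that entry beyond their SDs.

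**Figure D2:**
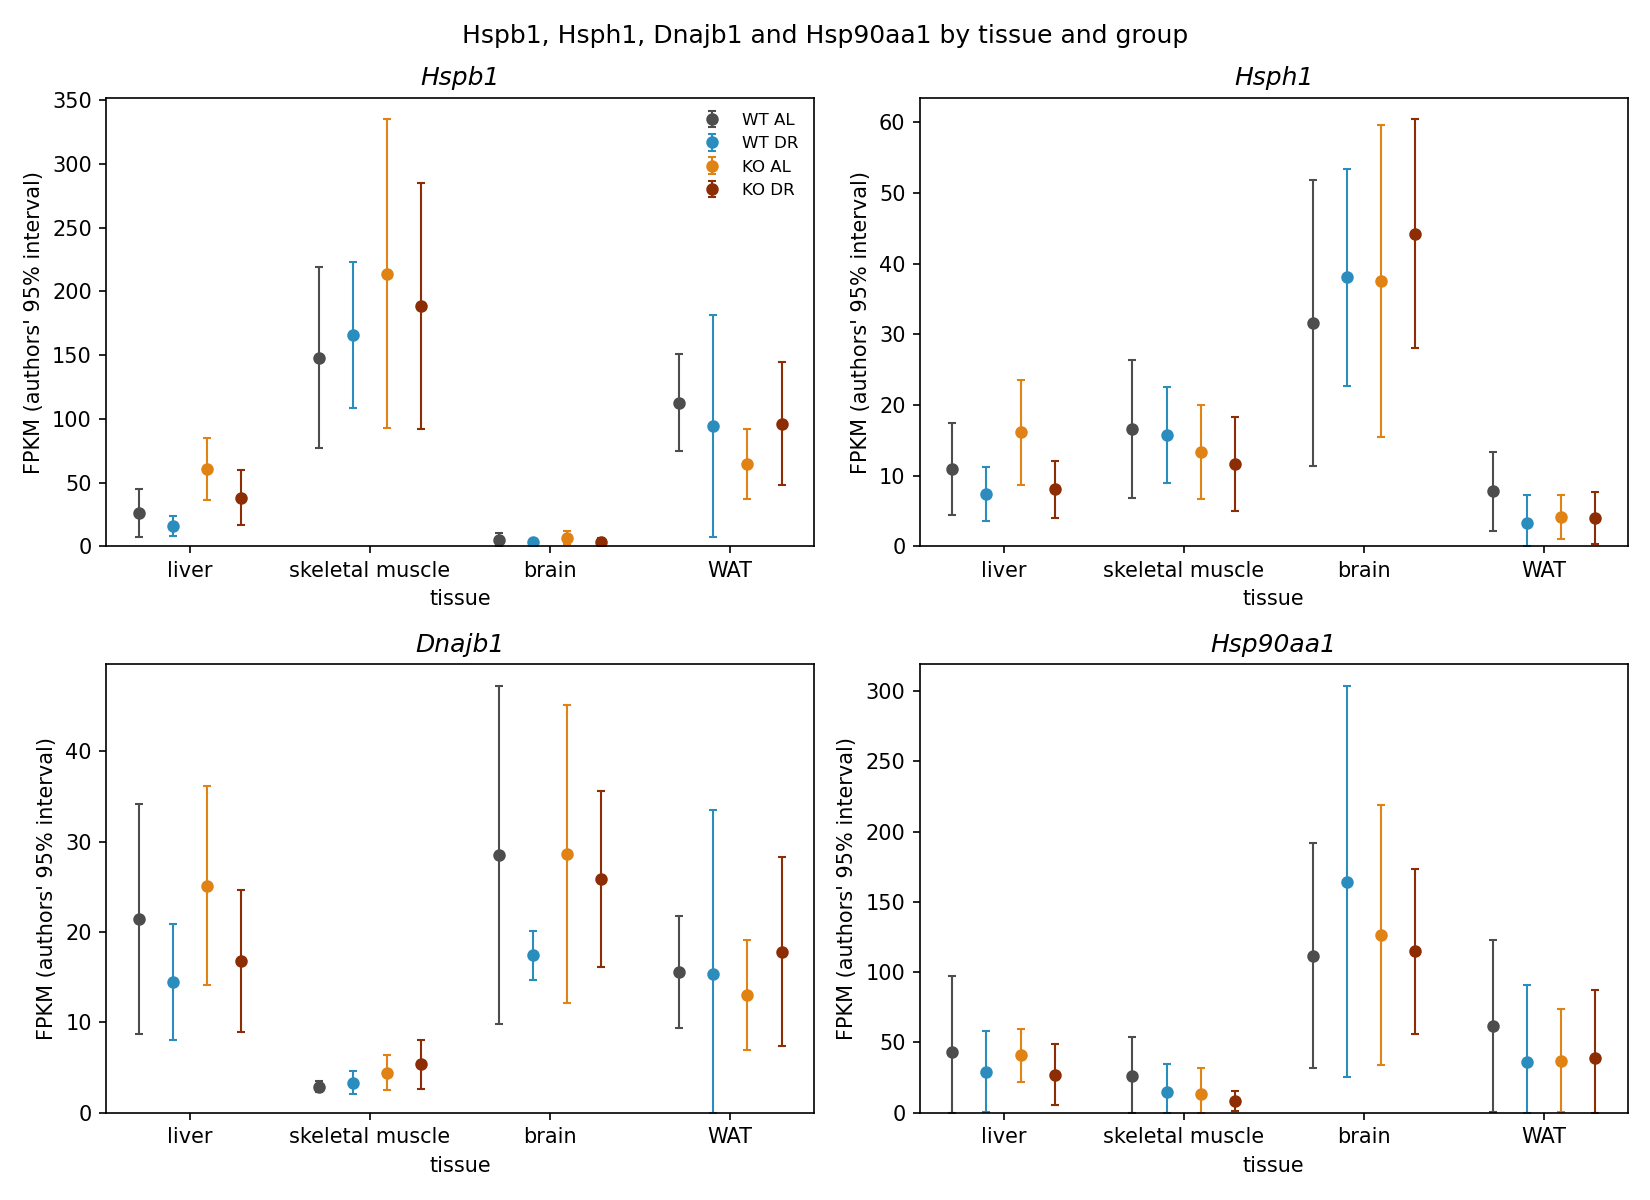
FPKM of Hspb1, Hsph1, Dnajb1 and Hsp90aa1 (linear axes) by tissue; points are the 4 groups and bars the authors' 95% intervals. The muscle groups of Hspb1 lie at 148 to 214 FPKM and its brain groups at 3.48 to 6.77, while Dnajb1 reaches at most 5.35 FPKM in muscle.

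Counted over the 10 members, 6 did not overlap between liver and skeletal muscle, where 54.9% of all entries did not. Between liver and brain 6 did not overlap (66.4% of all entries), between liver and WAT 2 (49.1%), between muscle and brain 4 (62.8%), between muscle and WAT 4 (49.7%) and between brain and WAT 3 (59.7%). In total 25 of 60 such pairs were without overlap. The members' count lay below the share of all entries in the pairs of liver and WAT, muscle and brain, and brain and WAT. In the other pairs it was near that share. Of the 6 members without overlap between liver and skeletal muscle, 1 is Hsp90b1, whose SDs are as large as its FPKM. These are descriptions without a test.

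The groups were compared next, within each tissue, by the log2 ratio of their FPKM values. A two-sided Wald test took its standard error (SE) from the authors' intervals, and a gene was called where its Benjamini-Hochberg adjusted p was under the FDR of 10% over all entries of that tissue and comparison. Only called differences are said to have risen or fallen, and cell marker genes are counted only where they were called. Over 10 members, 4 tissues and 5 comparisons (the interaction described below included), 4 differences were called, and all were of Hspa1a or Hspa1b. Of all entries 0.086% to 2.23% were called in a tissue and comparison. Both Hspa1b calls in WAT share the KO AL group. None of the other 8 members was called in any tissue or comparison. The SDs behind these tests had a median over groups of 24.4% of the FPKM for Hspa1b and 28.9% for Hspa1a, against 37.7% for Hspa8, 39.3% for Hsp90ab1 and 49.6% for Hsp90aa1.

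Hspa1b was the member with the largest called differences. In WAT it had 9.09 ± 1.74 FPKM (SD) in WT AL, 4.68 ± 2.59 in WT DR, 39.3 ± 6.10 in KO AL and 12.0 ± 3.49 in KO DR. In skeletal muscle it had 10.4 ± 2.96, 2.65 ± 0.957, 24.7 ± 4.77 and 5.09 ± 1.33 FPKM in the same order, and in liver 12.0 ± 4.12, 6.35 ± 1.38, 17.3 ± 3.44 and 6.77 ± 1.59 FPKM. In these 3 tissues the KO AL group was the highest and the WT DR group the lowest, and both restricted groups lay below both AL groups in muscle and liver. In brain the values were 13.4 ± 4.65, 7.90 ± 1.69, 14.4 ± 3.64 and 14.3 ± 3.04 FPKM, with WT DR alone below the other 3 groups.

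Hspa1a followed the same order at a lower level in liver, with 3.44 ± 1.54 FPKM in WT AL, 1.65 ± 0.487 in WT DR, 5.22 ± 1.27 in KO AL and 2.00 ± 0.640 in KO DR. In skeletal muscle it had 8.31 ± 2.41, 3.17 ± 0.915, 16.3 ± 4.35 and 6.07 ± 1.59 FPKM, and in WAT 5.76 ± 1.3, 4.08 ± 2.36, 13.3 ± 2.97 and 7.98 ± 2.56 FPKM. KO AL was again the highest group and WT DR the lowest in each of them, although the tissues appear to share mice. In brain it had 13.9 ± 4.59, 5.24 ± 1.04, 12.9 ± 3.78 and 16 ± 3.29 FPKM, and there WT DR stood below 3 groups of like level.

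**Figure D3:**
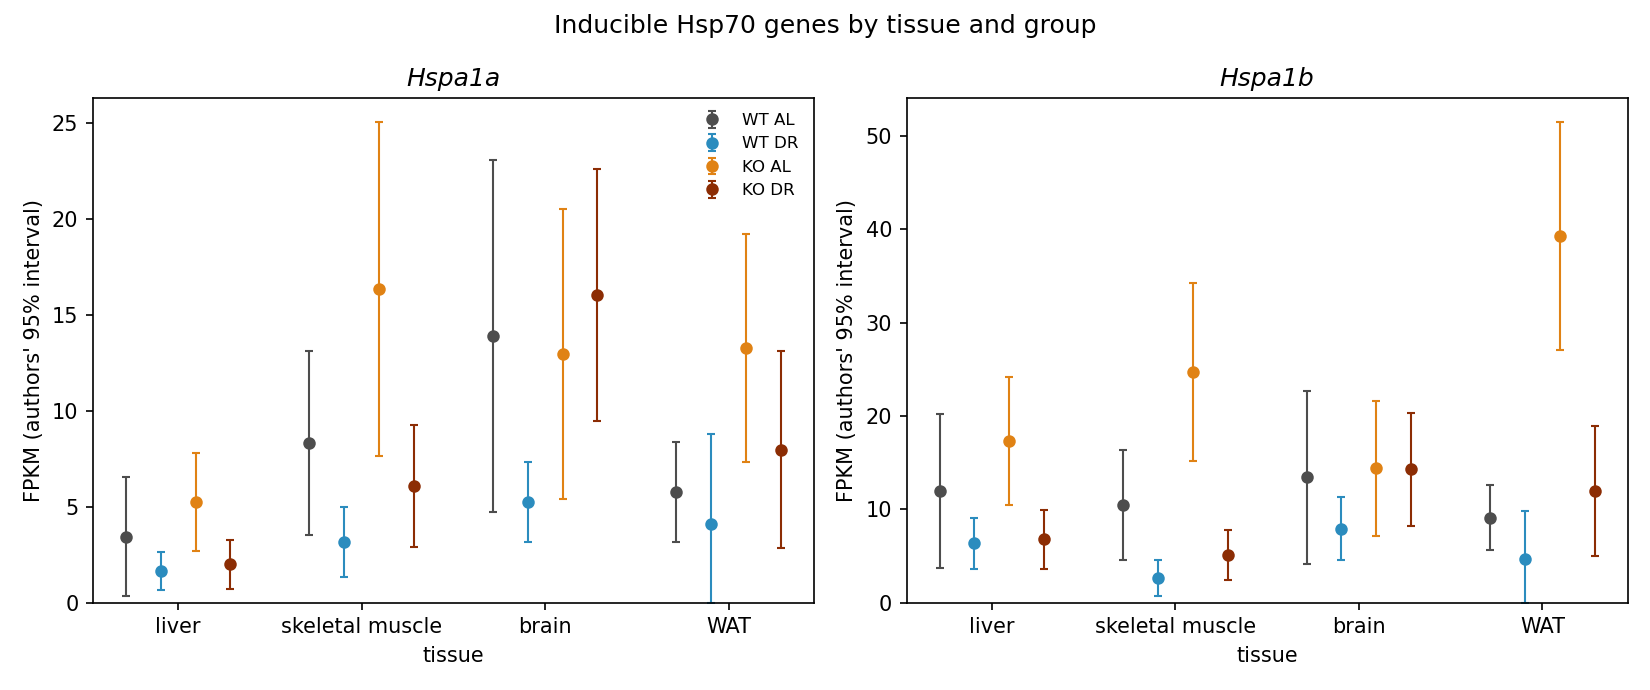
FPKM of Hspa1a and Hspa1b (linear axes) by tissue; points are the 4 groups and bars the authors' 95% intervals. KO AL is the highest group and WT DR the lowest in liver, skeletal muscle and WAT for both genes, with Hspa1b at 39.3 FPKM in KO AL against 4.68 in WT DR in WAT.

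For the effect of the KO label under AL feeding, 1 member was called. Hspa1b rose in WAT of KO AL mice by 4.32-fold over WT AL (log2 difference 2.11, SE 0.36), in a tissue where 1.29% of all entries were called. No member was called in liver, skeletal muscle or brain, where 0.316%, 0.681% and 0.203% of entries were called. At an unadjusted p under 0.05 there were 1, 1, 0 and 3 members in liver, skeletal muscle, brain and WAT, beside 2.03%, 3.18%, 1.81% and 4.48% of all entries. Among them Hspa1a had a log2 difference of 1.2 (SE 0.46) in WAT and Hspa1b of 1.24 (SE 0.49) in skeletal muscle.

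Because reads of the copies can be exchanged, their FPKM values were also summed. The SD of a sum given here joins the SDs in quadrature, which treats the errors of the copies as independent. Each call of a sum was repeated with the SDs added linearly, as if the errors moved together. An exchange of reads would instead move the errors in opposite directions, and that setting was not tried. In WAT the sum was 14.9 ± 2.17 FPKM in WT AL and 52.6 ± 6.79 in KO AL, a log2 difference of 1.82 that was called both ways. In the same comparison 7 of 10 skeletal muscle markers and 4 of 6 epithelial markers (4 were tested) were higher in WAT of KO AL mice. The summed muscle markers were at 531 FPKM in WT AL and 1142 in KO AL with none at 0, the epithelial ones at 16.8 and 127 with 2 and 1 of 6 at 0, and the 8 adipocyte markers at 20249 and 13652 with none at 0. Their part in the result was not tested.

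Hspb1 had opposite signs in liver and WAT in this comparison. Its log2 difference was 1.21 (SE 0.59) in liver, where KO AL was the highest group, and -0.81 (SE 0.39) in WAT, where KO AL was the lowest. Neither was called, and the difference between the tissues was not tested. The medians over the 10 members were 0.55 in liver, 0.38 in skeletal muscle, 0.05 in brain and -0.35 in WAT, beside 0.16, -0.05, 0.13 and -0.06 over all entries.

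For DR in WT mice, which shares its WT AL group with the comparison above, no member was called in any tissue. The Wald test called 0.236% of entries in liver, 1.4% in skeletal muscle, 0.224% in brain and 0.57% in WAT. Hspa1a and Hspa1b had a lower FPKM in WT DR than in WT AL in all 4 tissues, which appear to share mice. The log2 differences were -1.06, -1.39, -1.41 and -0.50 for Hspa1a and -0.91, -1.98, -0.76 and -0.96 for Hspa1b in liver, skeletal muscle, brain and WAT. At an unadjusted p under 0.05 stood Hspa1a (SE 0.59) and Hspa1b (SE 0.66) in skeletal muscle and Hspa1a (SE 0.56) in brain, and no other member. Over all entries 5.05% passed that threshold in skeletal muscle and 2.22% in brain.

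The result in muscle depended on how the copies were taken. Their sum was 18.8 ± 3.81 FPKM in WT AL and 5.82 ± 1.32 in WT DR, a log2 difference of -1.69 that was called lower with the SDs joined in quadrature (SE 0.44) and not called with the SDs added linearly (SE 0.62). In the same comparison 9 of 10 hepatocyte markers were higher in muscle of WT DR mice, from a summed 176 FPKM in WT AL to 3172 in WT DR with none at 0. Of 8 adipocyte markers 1 was lower (summed 1394 and 403 FPKM, none at 0), as were 2 of 5 B cell and macrophage markers (summed 32.8 and 9.87 FPKM, none at 0) and 1 of the 2 neuron and glia markers tested (8 markers summed 42.4 and 8.62 FPKM, none at 0). Their part in the result was not tested.

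The constitutive forms had wide intervals around this diet effect. Hspa8 had log2 differences of 0.19 in liver (interval -1.3 to 1.67), -0.17 in skeletal muscle (-1.56 to 1.22), -0.22 in brain (-1.71 to 1.28) and -1.05 in WAT (-3.04 to 0.93). Hsp90ab1 had -0.15 (-1.65 to 1.34), 0.09 (-1.25 to 1.43), -0.14 (-1.98 to 1.70) and 0.58 (-1.2 to 2.36) in the same tissues. A level 2-fold lower lay within every one of these intervals, and one 2-fold higher within all but that of Hspa8 in WAT. In liver 9 of 10 members and in WAT 9 of 10 members were lower in WT DR, with medians of -0.56 and -0.77 beside 0.03 and -0.17 over all entries.

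For the KO label under restriction, Hspa1a was the member called. In brain its FPKM was 3.06-fold higher in KO DR than in WT DR (log2 difference 1.61, SE 0.41), and 1.16% of all brain entries were called. Hspa1b had a log2 difference of 0.86 (SE 0.43) there and was not called. The sum of both genes had one of 1.21, called with the SDs in quadrature (SE 0.30) and not with the SDs added linearly (SE 0.42). The median of all brain entries was itself shifted by 0.23, and relative to that median Hspa1a differed by 1.39 and was no longer called. In this comparison 3 of 5 red blood cell markers were higher in KO DR (summed 971 FPKM in WT DR and 3475 in KO DR, none at 0) and 1 of 10 hepatocyte markers was lower (270 and 520 FPKM summed, with 0 and 1 at 0). The 8 neuron and glia markers, of which none was called, summed to 2970 FPKM in WT DR and 5791 in KO DR with none at 0, and the 4 mitochondrially encoded genes, of which none was called, to 38334 and 10547 FPKM. Their part in the result was not tested.

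No member was called in liver (0.288% of entries called), skeletal muscle (2.23%) or WAT (0.283%) in that comparison. Hspb1 in liver had 15.9 FPKM in WT DR and 38.1 in KO DR, a log2 difference of 1.26 (SE 0.53), which was under an unadjusted p of 0.05, as were 1.78% of liver entries, and not called. Its liver values were thus higher in the group labelled KO on both diets. In WAT all 10 members had a higher FPKM in KO DR than in WT DR, with a median log2 difference of 0.54 beside 0.09 over all entries. None of them had an unadjusted p under 0.05 (1.5% of all WAT entries did). The 9 of 10 members lower in WT DR than in WT AL in WAT share this WT DR group. It has 2 libraries, and its SDs for the members were 46.0% to 387% of the FPKM.

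For DR in mice labelled KO, Hspa1b fell in 2 tissues. It was 4.85-fold lower in skeletal muscle of KO DR than of KO AL mice (log2 difference -2.28, SE 0.47), where 0.5% of entries were called. In WAT it was 3.28-fold lower (log2 difference -1.71, SE 0.48), where 0.707% were called, and at an FDR of 5% this call was lost. The WAT comparison shares its KO AL group with the one in which Hspa1b rose, so both rest on the same 39.3 FPKM. No member was called in liver (0.611% of entries) or brain (0.365%).

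No list of cell markers had a called gene in skeletal muscle for this comparison. The 10 muscle markers summed to 126598 FPKM in KO AL and 187930 in KO DR, and the 5 red blood cell markers to 11582 and 20283. In WAT 3 of 10 hepatocyte markers were lower, with sums of 2255 FPKM in KO AL and 2696 in KO DR and none at 0, and their part in the result was not tested.

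Liver followed the same direction without passing the test in this comparison. Hspa1a had a log2 difference of -1.39 (SE 0.58), Hspa1b of -1.35 (SE 0.44) and Hsph1 of -1.0 (SE 0.49), each with an unadjusted p under 0.05, which 2.87% of all liver entries had. The summed Hspa1a and Hspa1b, 22.5 ± 3.67 FPKM in KO AL and 8.77 ± 1.72 in KO DR, had a log2 difference of -1.36, called with the SDs in quadrature (SE 0.37) and not with the SDs added linearly (SE 0.48). In WAT the same was so (log2 difference -1.40), and in muscle the sum was called lower both ways (-1.88). All 10 members had a lower FPKM in KO DR than in KO AL in liver, with a median of -0.66 beside -0.03 over all entries. In brain the differences were 0.31 for Hspa1a and -0.01 for Hspa1b, and 5 of 10 members were lower.

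**Figure D4:**
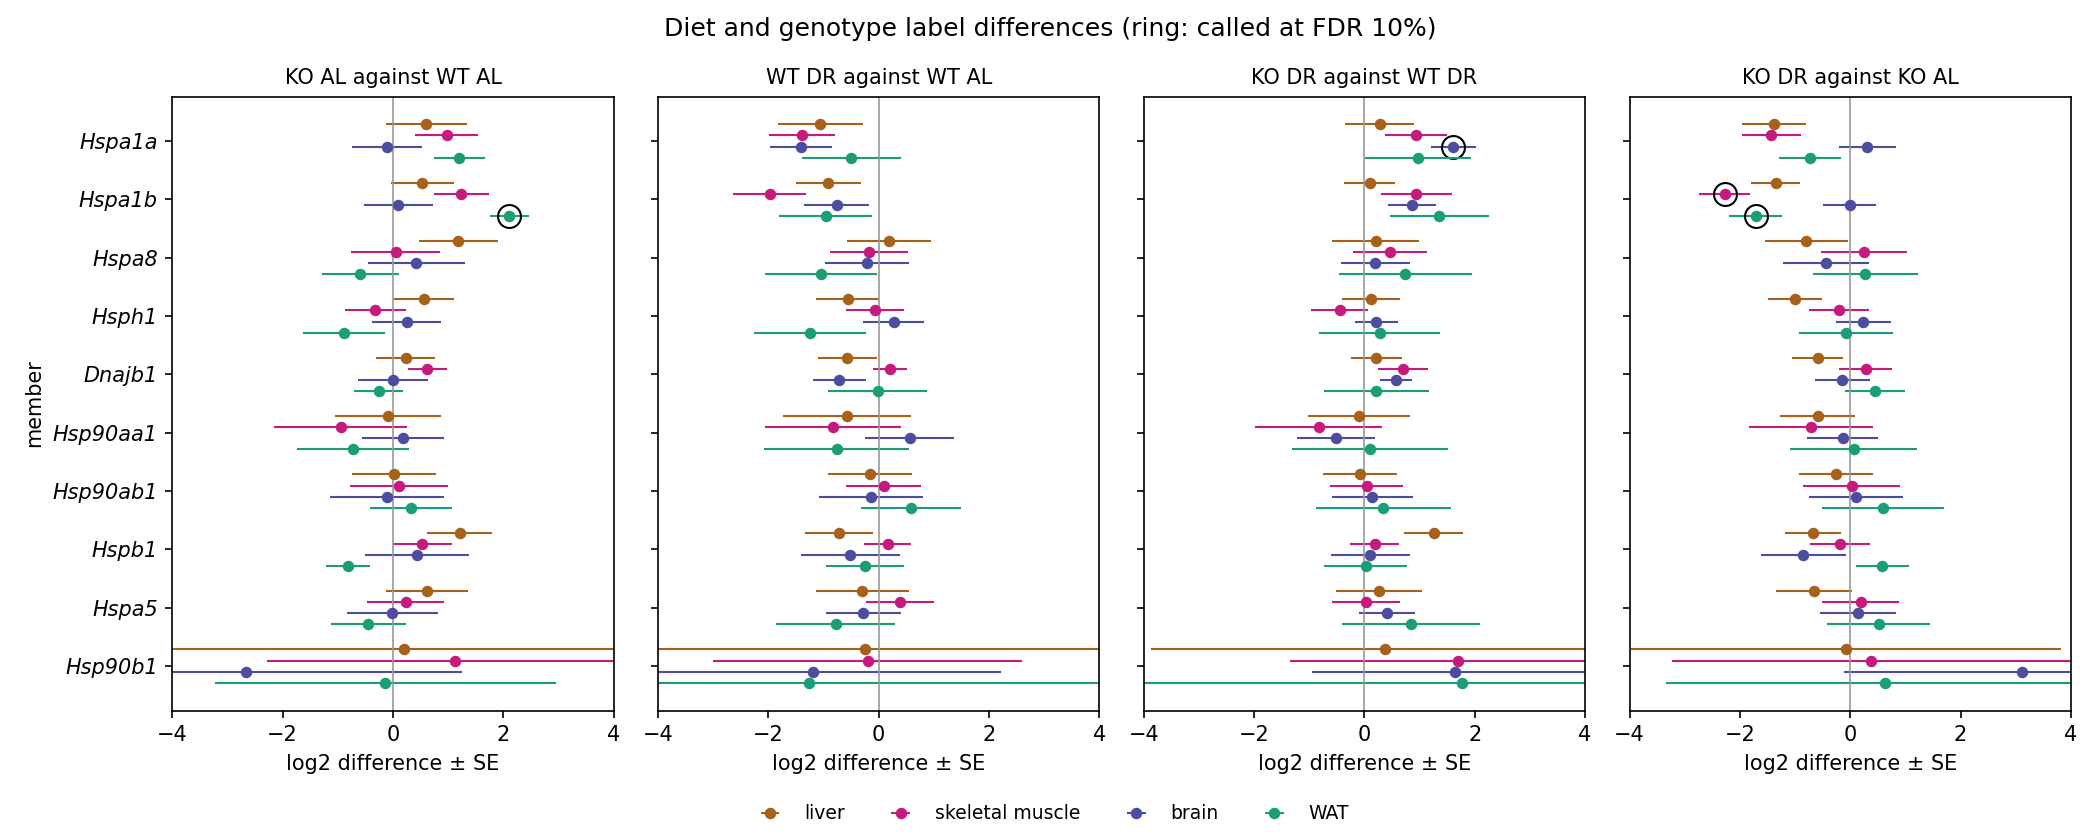
Log2 difference of each member in 4 comparisons, with bars of 1 SE and rings around the 4 called differences; tissues are coloured. The axes end at -4 and 4, and bars of Hsp90b1 run past them. The points of Hspa1a and Hspa1b lie below 0 in all 4 tissues for WT DR against WT AL and in liver, skeletal muscle and WAT for KO DR against KO AL.

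The interaction asks whether the difference between KO and WT labels changed with the diet. No member was called in liver, skeletal muscle, brain or WAT, where 0.086%, 0.371%, 0.396% and 0.121% of entries were called by the same Wald test. The difference with the smallest unadjusted p was that of Hspa1a in brain, with a log2 value of 1.72 (SE 0.76), and it was the only one of 40 with a p under 0.05, where 1.05%, 2.3%, 3.53% and 1.56% of all entries in liver, skeletal muscle, brain and WAT had one. With this SE the call of Hspa1a in brain under DR and its absence under AL feeding are therefore not shown to differ. With the smaller SE described next, this interaction of Hspa1a in brain was called higher.

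The authors' intervals can be read as spreads of single libraries or of group values, and with the SD divided by the square root of the number of libraries more differences passed. Over 4 tissues together 5 of 40 were then called for KO AL against WT AL (3.18% of all entries), 3 for WT DR against WT AL (3.39%), 6 for KO DR against WT DR (8.42%), 6 for KO DR against KO AL (4.86%) and 1 for the interaction (2.52%). The 3 lower in WT DR were Hspa1a and Hspa1b in skeletal muscle and Hspa1a in brain. The interaction called was that of Hspa1a in brain. Besides the Hspa1 genes the calls were of Dnajb1 in skeletal muscle (higher in KO AL and in KO DR than in the WT group on the same diet) and in brain (higher in KO DR than in WT DR), of Hspb1 in WAT (lower in KO AL) and in liver (higher in KO DR than in WT DR) and of Hsph1 in liver (lower in KO DR than in KO AL). Hspa8, Hsp90aa1, Hsp90ab1, Hspa5 and Hsp90b1 were not called under that SE either.

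Other chaperone genes were taken from 10 lists of 141 genes by function, of which 140 were in the table. Of the cytosolic Hsp70 and Hsp110 system (21 genes with nucleotide exchange factors and co-chaperones), 3 of 21 were called higher in brain of KO DR than of WT DR mice, where 1.16% of all entries were called, and none of the 3 was called relative to the median of all brain entries. They were Hspa1a, the Hsp70 gene Hspa2 (17.2 FPKM in WT DR and 41.4 in KO DR, log2 difference 1.26, SE 0.36) and Bag3, a partner of Hsp70 in selective autophagy (5.03 and 15.8 FPKM, 1.65, SE 0.43). The median of that list was 0.57 in this comparison beside 0.23 over all entries, with 17 of 21 genes higher. In the 16 pairwise tests of the list over tissues, its calls apart from these were those of Hspa1b.

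In the Hsp90 system (15 co-chaperones and Hsp90 genes) Chordc1 and Fkbp5 were called. Chordc1, an Hsp90 partner, rose in skeletal muscle from 5.03 FPKM in WT AL to 9.04 in KO AL (log2 difference 0.85, SE 0.17) and 7.65 in WT DR (0.60, SE 0.16). These comparisons share the WT AL group. Fkbp5, a co-chaperone of steroid receptors and itself a glucocorticoid target, fell in muscle from 31.2 FPKM in WT AL to 8.06 in WT DR (-1.95, SE 0.60), a call lost at an FDR of 5%, with no filter on low FPKM, relative to the median of all entries and where separate intervals were asked for. It was higher in KO DR than in WT DR in muscle (17.8 FPKM, log2 difference 1.15, SE 0.33) and in WAT (2.66 and 18.0 FPKM, 2.76, SE 0.46). In muscle 9 of 10 hepatocyte markers were lower in KO DR than in WT DR (summed 316 and 3172 FPKM, none at 0), 5 of 8 adipocyte markers were higher (1487 and 403 FPKM, none at 0), as were 2 of 5 red blood cell markers (20283 and 1553 FPKM, none at 0), 1 of the 2 neuron and glia markers tested (8 markers summed 78.5 and 8.62 FPKM, with 3 and 0 at 0) and 1 of the 3 epithelial markers tested (6 markers summed 34.3 and 6.94 FPKM, with 2 at 0 in each group). In WAT 1 of 10 skeletal muscle markers (738 and 412 FPKM, none at 0) and 1 of the 4 epithelial markers tested (98.6 and 25.7 FPKM, with 2 at 0 in each group) were higher in KO DR than in WT DR. In muscle of KO AL against WT AL mice 4 of 5 red blood cell markers were higher (11582 and 950 FPKM, none at 0), and 1 of 8 adipocyte markers (1172 and 1394 FPKM, none at 0) and 1 of 5 B cell and macrophage markers (14.6 and 32.8 FPKM, none at 0) were lower. Their part in these results was not tested.

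Of the endoplasmic reticulum chaperones (24 genes, 23 in the table) Edem1 alone was called, a gene that helps to remove misfolded glycoproteins. In muscle it fell from 2.69 FPKM in WT AL to 1.49 in KO AL (-0.85, SE 0.20) and 1.10 in WT DR (-1.29, SE 0.19), and its interaction was called there (1.10, SE 0.25). These muscle results share the WT AL group. In WAT Edem1 fell from 9.26 FPKM in KO AL to 5.13 in KO DR (-0.85, SE 0.22). In WAT 21 of 23 genes of this list were lower in WT DR than in WT AL, with a median of -0.48 beside -0.17 over all entries, and 21 of 23 were lower in KO AL (-0.31 beside -0.06). Both counts share the WT AL group of WAT, which has 2 libraries, as has WT DR in WAT. None of these differences was called, and Hspa5 and Hsp90b1 are among the genes counted.

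Among the small heat shock proteins (8 genes) Hspb7, a form of heart and skeletal muscle, fell in WAT from 25.7 FPKM in WT AL to 7.86 in KO AL (-1.71, SE 0.52) and 1.69 in WT DR (-3.93, SE 1.08). These comparisons share the WT AL group. Neither fall was called at an FDR of 5%. The one in KO AL was not called with no filter on low FPKM or relative to the median of all entries. In WAT of WT DR against WT AL mice 4 of 10 skeletal muscle markers were higher in WT DR (summed 531 and 412 FPKM, none at 0), and their part in the result was not tested. Of the 9 mitochondrial chaperone and protease genes Clpx, the ATPase of a matrix protease, fell in liver from 86.7 FPKM in KO AL to 19.0 in KO DR (-2.19, SE 0.47). No gene was called by the Wald test in any tissue or comparison among the 22 J proteins, the 14 genes of the TRiC chaperonin and prefoldin, the 10 regulators and targets of the unfolded protein response and the 7 heat shock factors and cold-inducible genes.

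Immediate early genes, which like Hspa1a and Hspa1b respond quickly to stimulation and stress, were listed beside the chaperones (12 genes). In brain Junb rose from 22.1 FPKM in WT AL to 106 in KO AL (log2 difference 2.25, SE 0.58), and 10 of 11 tested genes of the list were higher, with a median of 1.43 beside 0.13 over all entries. The call of Junb was lost at an FDR of 5% and relative to the median of all entries. For WT DR against the same WT AL group, also 10 of 11 were higher, with a median of 1.04 beside -0.08 over all entries and none called. In KO AL against WT AL Hspa1a and Hspa1b differed by -0.10 and 0.10. In brain of KO DR against WT DR mice, where Hspa1a was called, Fosb was called higher (2.29 and 3.89 FPKM, 0.76, SE 0.15), and the median of the list was 0.10 beside 0.23 over all entries. The interaction was called lower in brain for Junb (-2.49, SE 0.68) and Nr4a1 (-2.88, SE 0.77). In brain the 4 mitochondrially encoded genes summed to 7655 FPKM in WT AL, 38334 in WT DR, 39889 in KO AL and 10547 in KO DR. The 5 red blood cell markers summed to 1032, 971, 9907 and 3475 FPKM in the same order. No marker was called in brain of KO AL or WT DR against WT AL, and their part in these results was not tested.

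Members that moved together within tissues were compared by Pearson's correlation of log2(FPKM + 1), centred on the mean of each tissue, over the 16 groups. Groups of a tissue share their processing and their table, so the values are descriptions without a p. Hspa1a and Hspa1b had the highest r of all 45 pairs of members (0.93), and their reads can be exchanged. Next came Hspa8 with Hspa5 (0.80), Hspa8 with Hspb1 (0.70) and Hsph1 with Hsp90aa1 (0.70), while the median pair had 0.22 and the lowest, Hsph1 with Hsp90ab1, -0.33.

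Among 8878 other single-gene entries with an FPKM of at least 1 in all groups, those most like Hspa1a were Pqlc1 (r = 0.88), Nceh1 (0.86) and Atxn7l3b (0.85), and those most like Hspa1b were Nceh1 (0.88), Akap1 (0.87) and Ptpn3 (0.86). Serinc3, Sdf4 and Armc5 were nearest to Hspa8 (0.91 to 0.88), Fam222b, Srgap2 and Slc25a42 to Hsph1 (0.93 to 0.87) and Mrpl4, Tbc1d25 and Mfsd5 to Dnajb1 (0.95 to 0.91). Lrg1, Ppa1 and Fbxo31 were nearest to Hspb1 (0.93 to 0.88), Gm20775, Tbc1d23 and Csf1r to Hsp90aa1 (0.92 to 0.87), and Oaz1-ps, Gm2574 and Gm3272 to Hsp90ab1 (0.89 to 0.84). For Hspa5 they were Ppp2r3c, Wars and Mxra8 (0.88 to 0.85), and for Hsp90b1 Ppm1g, Max and Elovl1 (0.87 to 0.84). The highest of so many correlations over 16 points are high by selection, and no list of nearest genes held another gene of the 10 chaperone lists.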

How the data were processed

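Gene expression was measured by polyA RNA sequencing on an Ion Proton instrument. The authors trimmed the reads (cutadapt 1.5 is named in the submitters' processing notes), aligned them to GRCm38 with Ensembl annotation and ran Cuffdiff 2.2.1 with correction for reads that map to several places. They deposited FPKM values, 1 per gene and group, with the bounds of a 95% interval, so replicates were pooled before deposit. Sequences shared by several genes, such as those of Hspa1a and Hspa1b, were divided between them by that software. No count or value per library was used here, the depth is unknown, and each value is only as precise as its interval. Of the 42349 entries, 873 join several genes. Nothing in the labels says that libraries of a group came from separate cages or litters.

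Groups were taken from the labels. With Python 3.11.15, numpy 2.4.6, pandas 2.3.3, scipy 1.17.1 and matplotlib 3.10.9, the SD was taken as the distance from the FPKM to the upper bound, divided by 2. Log2 ratios without a pseudocount were tested with a two-sided Wald test (SE by the delta method, normal reference) and adjusted by the Benjamini-Hochberg method over all entries of a tissue and comparison, at an FDR of 10%. The p values rest on a normal approximation with 2 or 3 libraries per group, so they serve to call genes and are not printed. Entries were tested when every group compared had been quantified without a warning, no FPKM was 0 and 1 or more groups reached an FPKM of 1. The script was tested on simulated data. A gene on several entries was read from the one that carries its name alone. Genes named were the 10 members, Irs1, genes of the lists called at the FDR, and for each member the 3 entries with the highest correlation. The members and all lists, those of cell markers included (hepatocyte, skeletal muscle, adipocyte, neuron and glia, red blood cell, B cell and macrophage, mammary or other epithelium, mitochondrially encoded), were chosen with earlier results of these data known. Alternatives were a stricter FDR of 5%, separate intervals in place of a test, the SD divided by the square root of the number of libraries, pseudocounts of 0.1 and 1, no filter or an FPKM of at least 5, centring on the median, no joined entries, and the FPKM of Hspa1a and Hspa1b summed, with SDs in quadrature or, added after seeing the data, added linearly.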

Additional observations from a re-analysis of the deposited data

Results flagged for a closer look

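For 3 genes outside the 10 members the diet difference itself differed between the genotype labels, by the Wald test of the interaction at an FDR of 10%. Edem1 in skeletal muscle had 2.69 ± 0.284 FPKM (SD) in WT AL, 1.10 ± 0.082 in WT DR, 1.49 ± 0.132 in KO AL and 1.31 ± 0.0909 in KO DR, and its interaction was 1.10 on the log2 scale (SE 0.25). Junb in brain had 22.1 ± 7.39, 50.2 ± 7.91, 106 ± 23.5 and 42.8 ± 8.48 FPKM in the same order, and its interaction was -2.49 (SE 0.68). Nr4a1 in brain had 9.55 ± 3.41, 26.3 ± 4.84, 47.9 ± 13.3 and 17.9 ± 3.84 FPKM, and its interaction was -2.88 (SE 0.77). WT AL was the highest group for Edem1 and the lowest for Junb and Nr4a1. None of the 10 members was called in the interaction with this SE.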

How the results depend on the processing

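With the SD divided by the square root of the number of libraries, the differences called among the 40 of the members were 5 in place of 1 for KO AL against WT AL, 3 in place of 0 for WT DR against WT AL, 6 in place of 1 for KO DR against WT DR, 6 in place of 2 for KO DR against KO AL and 1 in place of 0 for the interaction. The interaction called was that of Hspa1a in brain. For WT DR against WT AL, a pseudocount of 1 gave 1 call (Hspa1b in skeletal muscle, log2 difference -1.65) and the sum of Hspa1a and Hspa1b gave 1, while that sum with its SDs added linearly, chosen after seeing the data, gave 0. With the SDs added linearly the sum left 0 calls for KO DR against WT DR and 1 for KO DR against KO AL. Centring on the median of all entries left 0 calls for KO DR against WT DR, and an FDR of 5% left 1 for KO DR against KO AL, without Hspa1b in WAT. These counts stayed within 1.5 times under the other alternatives, and among the differences printed 2 changed sign, both near 0 and not called, in brain for KO AL against WT AL: Hspa1b was -0.030 after centring, and Hspa1a, summed with Hspa1b with either SD, was 0.00034. Of the list genes, at an FDR of 5% the calls of Junb in brain (KO AL against WT AL), Hspb7 in WAT (both comparisons), Fkbp5 in muscle (WT DR against WT AL), Hspa2 in brain and the interactions of Junb and Nr4a1 were lost, and after centring those of Junb and Hspb7 in KO AL, of Fkbp5 and of Bag3 and Hspa2. The count of 25 tissue pairs without overlap was the same with an FPKM of at least 5. The cause of these changes was not tested beyond the construction of each alternative. No paired analysis was possible because the table holds 1 pooled value per group and carries no replicate numbers, and leaving out each replicate in turn was not run for the same reason.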
